A study of Trachinotus blochii with 12 samples.

Results

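A set of 151 of the 18490 gene models listed for Trachinotus blochii (golden pompano, farmed in warm seas for food) is described here: models with lower values in the liver of hypoxia-tolerant than of hypoxia-intolerant fish and with a small difference in brain. The members were chosen on these measured values. D is the mean log2(value + 1) of the Tol libraries minus that of the Intol libraries of a tissue. A member had a liver D of at most -1.5, all 3 Tol liver values below all 3 Intol liver values, a Tol liver mean of at least 1, a brain D smaller than 0.25 in size, a mean below 400 over the 6 livers and a mean below 200 over the 6 brains. The Tol-against-Intol differences of the members are therefore given as a description, with no test. The files pair no model with a gene name, so the members are described by their levels and not by their functions.

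Tol fish looked normal after 24 h at a dissolved oxygen of 0.9 mg/L, with a range of 0.1 mg/L, and Intol fish were dying and off balance within 1 h. All fish were 2 months old, unfed during the trial and kept at the same low oxygen in 3 tanks, and each status gave 3 liver and 3 brain RNA-seq libraries. Status and hours of hypoxia cannot be told apart in these groups, no library comes from fish at normal oxygen, and a lower value in Tol liver can equally be read as a higher value in Intol liver. How many fish a library holds, and whether libraries are separate animals, is not in the labels. A p-value here thus covers the spread among libraries, which may be technical, and fewer cells of a type and less RNA per cell cannot be told apart in bulk tissue. No model carries a gene name, so the tissue labels could not be checked against marker genes.

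As background, the liver of fishes stores glycogen, releases glucose to the blood, handles lipids and makes most plasma proteins. During oxygen shortage animals limit costly processes such as protein synthesis, and tissues turn towards anaerobic glycolysis. Oxygen-sensitive transcription factors of the HIF family switch many genes of glucose handling, and the brain, with little stored fuel, depends on glucose delivered by the liver.

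The conditions of the rule removed models in steps. A liver D of at most -1.5 was found for 230 models, of which 4 had overlapping Tol and Intol liver values. Of the 226 that remained, 35 had a Tol liver mean under 1. Of the 191 above that level, 37 had a brain D of 0.25 or more in size. Of the 154 left, 1 was over the liver level limit and 2 were over the brain level limit. Among models that met every other condition, 33 had a brain D of -0.25 or lower and 4 of 0.25 or higher. The mirrored rule, with a liver D of at least 1.5, was met by 55 models as deposited. It was not repeated after scaling. All 151 members passed the expression filter of the liver test (3 or more livers with values of 1 or higher), 20 of them with at least 1 Tol liver value under 1. In that test 151 members were called lower in Tol liver (limma, adjusted p under 0.05), against 29.6% of the 9109 models tested; the rule used this contrast, and nothing is read from the count. With the replicate number as a block, 150 were called lower, against 29.9%. Tol values lay wholly below Intol values in 40.1% of those models, and in every member because the rule asked for it.

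**Figure D1:**
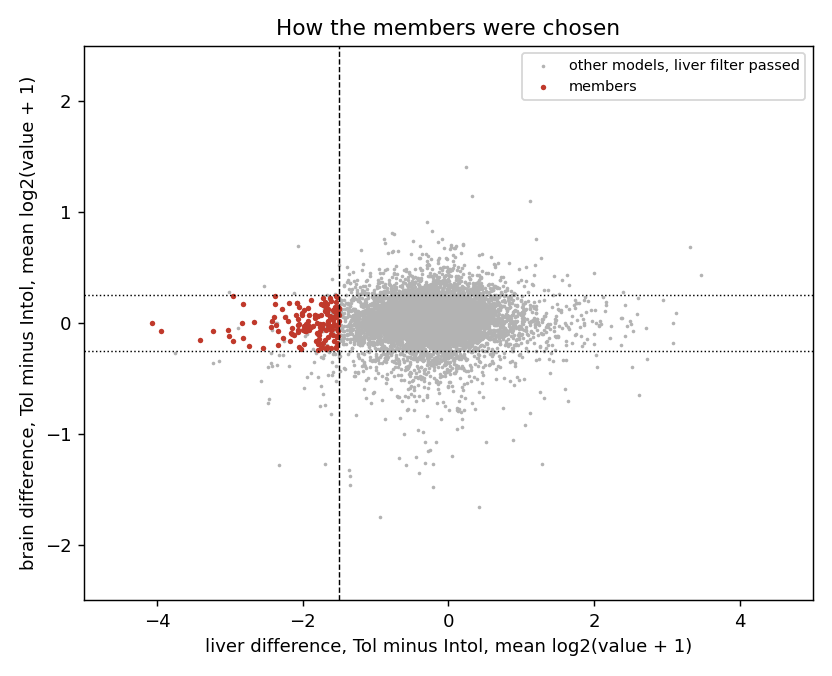
Liver D (horizontal) against brain D (vertical), both on the log2(value + 1) scale, for models that passed the liver filter, with members in red and the limits of the rule as dashed and dotted lines; 2 models lie outside the axes. The 151 members fill the strip left of -1.5 and between the brain limits, and grey models inside the strip failed another condition.

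The summed level of the 151 models was lower in Tol than in Intol liver. As deposited, the Tol liver sums were close to the brain sums. Values are read as FPKM, which divides fragments by transcript length and by the size of the library. The sum was 1889, 2188 and 2350 in the Tol livers and 7782, 7555 and 9354 in the Intol livers. Summed over members, Tol brains held 2139, 2073 and 2238 and Intol brains 2144, 2110 and 2188. As a share of all values, the members held 0.356% ± 0.033 in Tol liver and 1.36% ± 0.16 in Intol liver (SD, n = 3). Tol brain had a share of 0.581% ± 0.017 and Intol brain of 0.588% ± 0.007 (SD, n = 3). The median member stood at 5.24 ± 0.68 in Tol liver, 23.4 ± 3.9 in Intol liver, 7.30 ± 0.30 in Tol brain and 7.45 ± 0.14 in Intol brain (SD, n = 3). The rule fixes that Intol liver stands above Tol liver. It does not fix where the brain groups lie, and they stood nearer to Tol liver in these sums and medians as deposited. As a share of all values they stood above Tol liver, and their place depends on the scaling between tissues. The closeness of the sums is not one of single members. In Tol fish as deposited, 61 members stood higher in liver, and 61 had brain more than 1 above liver (log2(value + 1)).

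**Figure D2:**
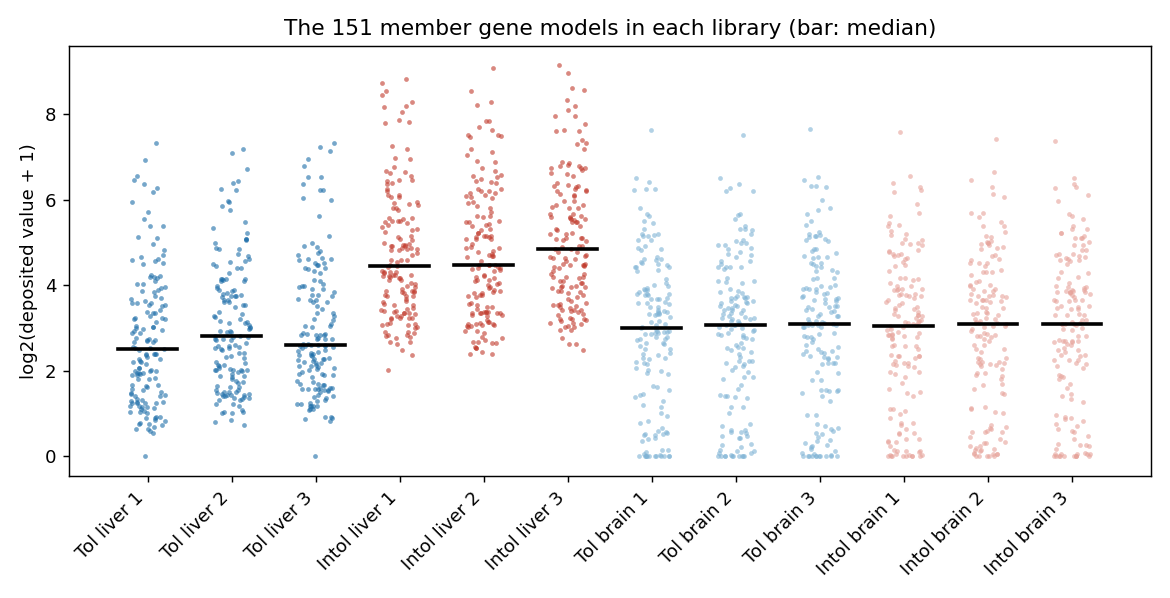
Each point is a member in a library, as log2(deposited value + 1), and the bar is the median of the 151 members. The Intol livers sit highest, and the 6 brain libraries have nearly the same median.

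Members spanned a wide range of levels. The Tol liver mean ran from 1.00 to 151 with a median of 5.43, and the Intol liver mean from 4.86 to 518 with a median of 23.6. An Intol liver mean of at least 100 was reached by 19 members, at least 30 by 66, and under 10 by 31. Of the 19 most abundant, 10 had a brain mean under 1. At the low end, 36 members had a Tol liver mean under 2 and 20 had at least 1 Tol liver value under 1. For these the log2(value + 1) scale understates the ratio.

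Most reductions were moderate in size, close to the limit that defined the set. The median liver D was -1.76, the quartiles were -2.06 and -1.62, and 106 of 151 lay above -2. The ratio of the Intol to the Tol liver mean had a median of 4.21 and ran from 2.87 to 24.1, the highest in a member listed at 0 in 2 of its Tol livers. It was at least 3 in 146 members, at least 5 in 45, at least 8 in 14 and at least 10 in 5. The lowest Intol liver value was at least 2 times the highest Tol value in 135 members, with a median of 2.72 times. Within a group, the highest Intol liver value was at least 2 times the lowest in 23 members, and the highest Tol value in 41. The median coefficient of variation was 24.3% in Tol liver and 21.7% in Intol liver, above 7.85% in Tol brain and 9.73% in Intol brain for the 121 and 120 members with a mean of at least 1 there. This spread is not given over all models, so the wider spread in liver is not read as particular to the members.

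Trachinotus_GLEAN_10011160 had the lowest liver D among members with a liver mean above the median of the set. Tol livers held 2.48, 5.85 and 4.25 and Intol livers 58.66, 70.07 and 106.47. Every Intol value was thus far above every Tol value, with means of 4.19 ± 1.69 and 78.4 ± 24.97 (SD, n = 3), a ratio of 18.7 and a liver D of -3.94. In brain it stayed between 0.34 and 0.57 in all 6 libraries, so its small brain difference is that of a model near 0.

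Trachinotus_GLEAN_10011020 came next by the same measure and, unlike the first, was clearly detected in brain. Tol livers held 4.26, 11.55 and 4.82, and Intol livers 38.57, 105.16 and 109.08. The Intol values were uneven, with replicate 1 well under the other 2, at a mean of 84.3 ± 39.6 against 6.88 ± 4.06 in Tol (SD, n = 3), a ratio of 12.3 and a liver D of -3.41. The Tol brains held 9.43, 9.66 and 9.04 and the Intol brains 9.66, 11.59 and 10.43. As deposited, the brain means, at 9.38 ± 0.31 in Tol and 10.6 ± 0.97 in Intol (SD, n = 3), lay between the liver means of the groups. Tol liver 2 stood above every Tol brain. The place of brain depends on the scaling between tissues and is not given after scaling for this model.

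The lowest liver D of the whole set, -4.07, belonged to a less abundant member. It was listed at 0 in Tol livers 1 and 3 and at 3.49 in Tol liver 2, and at 16.51, 34.37 and 33.24 in Intol livers. It was 1 of 2 members listed at 0 in all 6 brain libraries, and the single member with a Tol liver value of 0. A listed 0 can be a failed estimate, so its ratio of 24.1, which also enters the counts above, is uncertain.

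At the edges of the rule, values just inside and just outside were alike. The member nearest the liver limit had Tol livers at 2.49, 3.13 and 2.77 and Intol livers at 8.35, 9.10 and 12.11, a liver D of -1.503. The nearest model outside had 2.47, 2.81 and 5.38 against 12.06, 10.50 and 11.56, a liver D of -1.494. Within 0.1 of that limit lay 35 members on one side and 35 non-members on the other. The member nearest the brain limit had a brain D of 0.248 and brain values of at most 0.50, and the nearest model outside had a brain D of -0.251 with brain values from 63.32 to 93.63. The member nearest the Tol level limit had a Tol liver mean of 1.003, and the nearest model outside had 0.997. The size of the set follows the limits chosen.

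The size of the set also followed the scaling of the libraries. The median liver D of all 9109 models tested was -0.20 as deposited. Median-ratio scaling brought it to 0.04. With it, the share of tested models called higher in Tol liver went from 7.49% to 16.9%, and lower from 29.6% to 16.7% (limma, adjusted p under 0.05). After that scaling within each tissue, 77 models met the rule, 73 of them among the 151. The median liver D of the 151 became -1.501, and 151 were called lower in Tol liver (limma, adjusted p under 0.05), in the contrast that the rule used, against 16.7% of the 9084 models tested after scaling. Scaling over all 12 libraries left 106 models, 81 of them members. With a pseudocount of 5, which damps low values, 69 models met the rule and 61 of them were members. With a pseudocount of 0.1, 225 models met it and 125 were members.

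In brain the members were expressed to very different degrees. The brain mean ran from 0 to 184 with a median of 7.19. It was at least 10 in 61 members and under 1 in 30, and 16 were listed at 0 in at least 1 brain library. For the 30 under 1, a brain D within the limit says only that the model is near 0 there. For the other 121, the rule chose models whose brain groups were close: over all 151, brain D had a median of -0.02 and lay between -0.24 and 0.25, above 0 for 65, under 0 for 84 and exactly 0 for 2. Of 120 members that passed the brain filter, 0 were called between Tol and Intol brain (limma, adjusted p under 0.05), against 0.0212% of the 14146 models tested, and 6 had an unadjusted p under 0.05. Tol and Intol brain values did not overlap in 14 of the 120, against 22.7% of the models tested. The rule used this contrast, and nothing is read from these counts.

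Liver and brain levels were then compared, since the rule set limits on the levels but not on their difference. A difference between the tissues averaged over Tol and Intol was tested for 14817 models over all 12 libraries. Of the 151 members, 76 were higher in liver and 53 higher in brain (limma, adjusted p under 0.05), against 13.2% and 82.1% of all models tested. With the replicate number as a block the counts were 78 and 55, against 13.3% and 82.3%. Part of this is set by the rule, which asked for a Tol liver mean of at least 1 and for Intol livers well above Tol. The shares are therefore a description. Among the 8005 other tested models with such a mean and under the same level limits, 20.3% were higher in liver and 72.4% in brain, against 50.3% and 35.1% of the members, but those other models did not have to be high in Intol liver. With Intol libraries alone, 107 members were called higher in liver and 17 in brain, against 13.5% and 77.9% of the 14285 models tested. With Tol libraries alone, 145 of the 151 members passed the filter. Of these, 49 were called higher in liver and 81 in brain, against 12% and 83.1% of the 14306 models tested. The median liver-minus-brain difference was 0.32 on the log2(value + 1) scale in the members, -1.14 in those other models and -1.51 in all models tested.

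These directions depended on how liver and brain libraries were scaled. Median-ratio scaling over the 12 libraries moved the median of all models from -1.51 to -0.17 and that of the members from 0.32 to 2.06. It left 133 members called higher in liver and 7 higher in brain, against 39% and 48.6% of the 14074 models tested. The other models under the level limits turned too, to 58.2% higher in liver and 26.7% higher in brain. Under both scalings the median of the members lay above that of all models. Since members were chosen for high Intol liver values, their place above brain is partly that of Intol liver alone, and the status groups are best seen apart.

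As deposited, 121 of 151 members stood higher in liver than in brain in Intol fish, and 61 did in Tol fish. For 60 members the order of the tissues thus turned between the groups, liver above brain in Intol and below it in Tol, 61 were above brain in both and 30 below it in both. The median liver-minus-brain difference was 1.34 in Intol and -0.58 in Tol on the log2(value + 1) scale. With the same level limits and Tol liver mean, 8030 other models, tested or not, had medians of -1.01 in Intol and -1.24 in Tol. The brain stood more than 1 above the liver in 9 members in Intol and in 61 in Tol. These counts restate the liver difference that chose the members and are given without a test. They were not repeated after median-ratio scaling over the 12 libraries, which raised the median tissue difference of the members to 2.06.

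**Figure D3:**
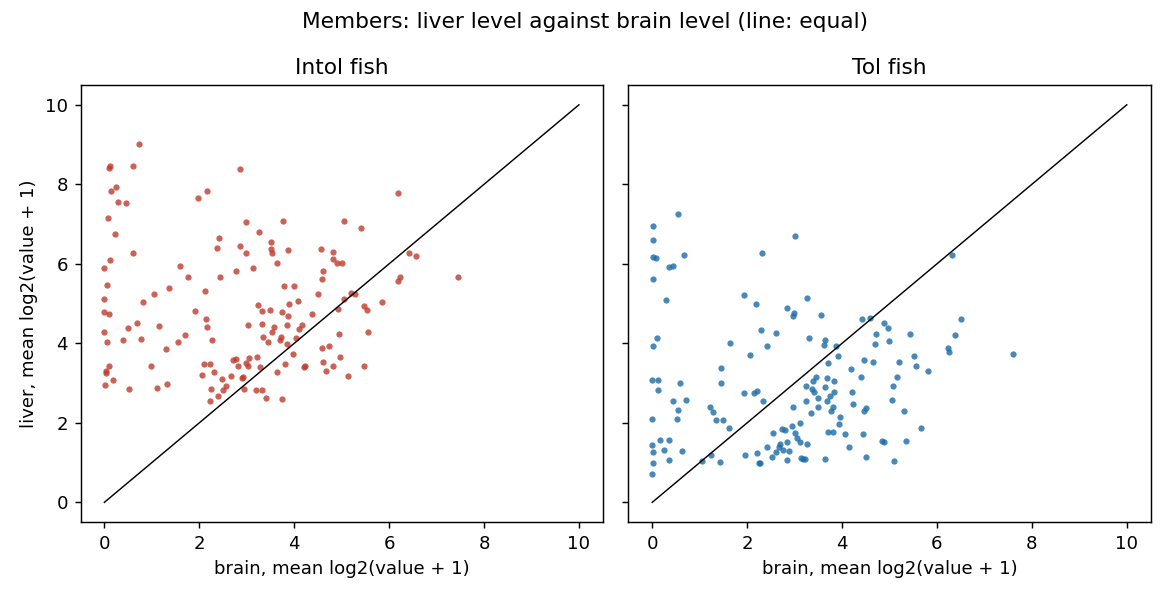
Mean log2(value + 1) in liver (vertical) against brain (horizontal) for each member, in Intol and in Tol fish, with a line of equal levels. As deposited, most members, 121, lie above the line in Intol fish, and 61 do in Tol fish. These counts were not repeated after scaling between the tissues.

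As deposited, the members formed a gradient from liver-dominated to brain-dominated models. The place of each class against brain depends on the scaling between tissues. After median-ratio scaling over the 12 libraries, 7 members were called higher in brain in place of 53 (limma, adjusted p under 0.05). Of all models tested, 48.6% were called so in place of 82.1%. With limits set after the values were seen, 24 members were higher in liver by more than 3 on the log2(value + 1) scale. Their median was 36.0 in Tol liver, 124 in Intol liver, 0.258 in Tol brain and 0.210 in Intol brain, and 18 of the 24 had a brain mean under 1. The 38 members higher in liver by 1 to 3 had medians of 5.46 and 25.7 in Tol and Intol liver and of 1.94 and 2.15 in the brains. The 60 members within 1 had 4.50 and 18.3 in the livers and 9.995 and 10.2 in the brains. The 29 members higher in brain by more than 1 had 2.76 and 12.4 in the livers and 28.4 and 29.6 in the brains. The median liver D of these classes was -1.72, -1.98, -1.74 and -1.74, all bounded above by the limit of -1.5. Their median ratio of Intol to Tol liver means was 3.32, 4.92, 4.04 and 4.22.

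As deposited, Trachinotus_GLEAN_10016700 was the most liver-dominated member of the set on the log2(value + 1) scale. It stood at 121.59, 135.97 and 109.70 in Tol liver, 373.83, 370.51 and 320.95 in Intol liver, and at most 0.17 in any brain library. The tissues did not overlap, with a liver-minus-brain difference of 7.64 ± 0.07 (SE, limma adjusted p = 2.73e-16). That difference ranged from 5.40 with a pseudocount of 5 to 10.5 with a pseudocount of 0.1. This member and the others named for a tissue difference were picked by this same test. Their small adjusted p-values follow from that choice, and nothing is read from them. The Intol liver mean of Trachinotus_GLEAN_10016700 was 2.90 times the Tol mean, near the low end of the set. Over the alternatives run, its liver D of -1.53 ranged from -1.61 to -1.23. It was -1.23 under median-ratio scaling and -1.45 under quantile normalization, both short of the limit of -1.5.

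Trachinotus_GLEAN_10009209, the most abundant member in liver, followed with 160.13, 143.68 and 148.64 in Tol liver and 450.16, 543.12 and 562.13 in Intol liver. All 6 brain values lay between 0.40 and 0.66. Both liver groups were tight, at 151 ± 8 and 518 ± 60 (SD, n = 3), and the liver-minus-brain difference was 7.50 ± 0.07 (SE, limma adjusted p = 2.41e-16). That difference exceeded the one of Trachinotus_GLEAN_10016700 under median-ratio scaling (8.72 against 8.62), under quantile normalization and with a pseudocount of 5. Over the alternatives run, the liver D of -1.77 ranged from -1.87 to -1.46. The last value, under median-ratio scaling, was short of the limit of -1.5.

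At the other end, Trachinotus_GLEAN_10019659 was a brain-dominated member with little liver signal in Tol fish. Tol livers held 0.90, 1.12 and 1.16 and Intol livers 7.67, 7.20 and 9.48. The Tol brains stood at 34.37, 30.92 and 34.47 and the Intol brains at 35.17, 31.65 and 36.02, and these groups overlapped. The liver-minus-brain difference was -3.01 ± 0.07 (SE, limma adjusted p = 1.31e-12), and the Intol liver mean was 7.66 times the Tol mean. Over the alternatives run, that difference ranged from -4.06 with Tol libraries alone to -1.39 under median-ratio scaling, so the SE does not cover its dependence on processing.

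Trachinotus_GLEAN_10018968 was alike in level, but its brain groups did not overlap. Its livers held 1.67, 3.39 and 3.22 in Tol and 9.22, 7.76 and 12.63 in Intol. The Tol brains reached 49.38, 49.43 and 49.94 and the Intol brains 40.69, 43.84 and 45.54, so the Tol brains lay wholly above the Intol brains while the Tol livers lay wholly below the Intol livers. Brain groups that do not overlap, in either direction, were found in 14 of 120 members and in 22.7% of all models tested. The brain D was 0.19, inside the limit of the rule, and the liver-minus-brain difference was -2.92 ± 0.14 (SE, limma adjusted p = 5.27e-10). That difference ranged from -3.78 with Tol libraries alone to -1.19 under median-ratio scaling. Over the alternatives run, the liver D of -1.54 ranged from -1.84 to -0.93. It was -1.29 under median-ratio scaling and -0.93 with a pseudocount of 5, both short of the limit of -1.5.

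**Figure D4:**
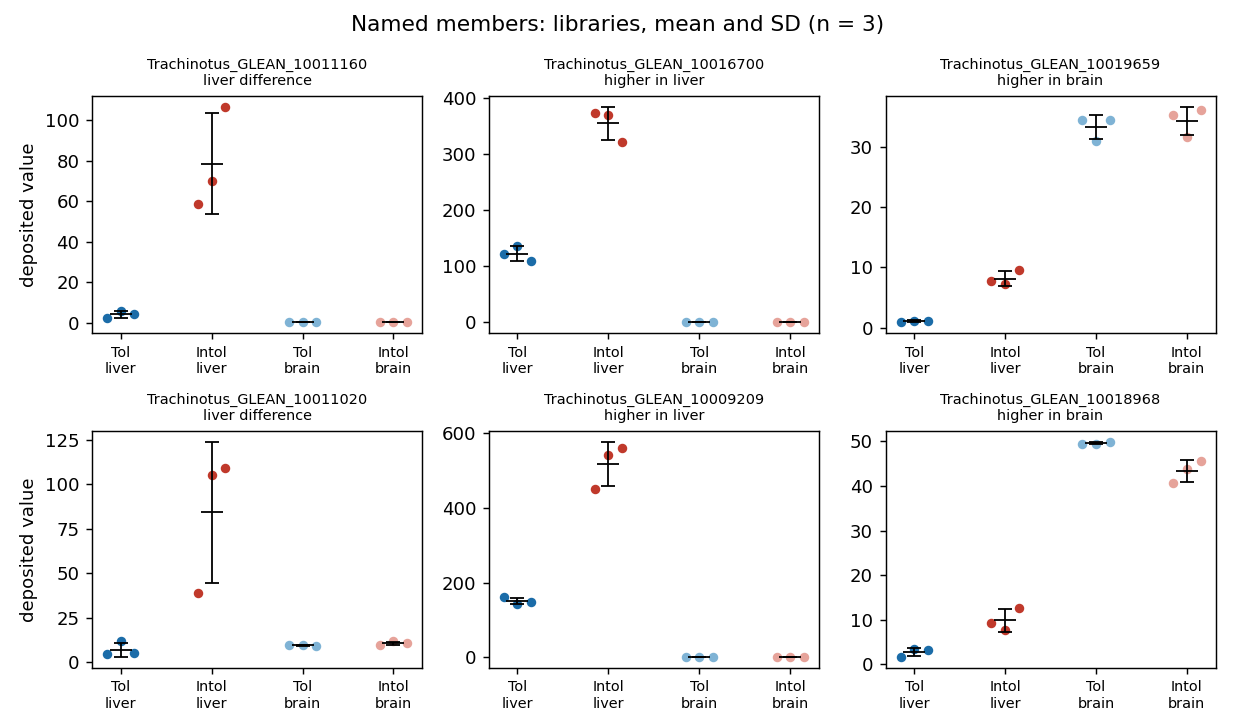
Deposited values of the 6 named members in each library (points), with the mean and SD of each group (n = 3). Intol liver exceeds Tol liver in all 6. As deposited, the brain means lie near 0 in 3 of them, between the liver means in Trachinotus_GLEAN_10011020 and above both in the last column. The place of brain depends on the scaling between tissues.

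Livers of one group differed in a way that many members shared. Among Intol livers, replicate 3 was the highest for 108 members, replicate 1 for 31 and replicate 2 for 12. Replicate 3 was highest in 71.5% of members, in 62.9% of the 3503 other filtered models with Tol wholly below Intol, and in 41.5% of all 9109. The median member lay 0.26 above its group mean in Intol liver 3, on the log2(value + 1) scale, and 0.11 below it in each of the other 2. Over all filtered models the median for Intol liver 3 was 0.02. The part of this library in the members' differences is shown by leaving it out: the median liver D was then -1.70, and 121 models met the rule, 119 of them members.

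Among Tol livers, replicate 1 was the lowest for 89 members, or 58.9%, against 48.2% of the other models with Tol wholly below Intol. Replicate 2 was the highest for 71, or 47.0%, against 46.6% of those models, about the same share. Which Tol library was highest varied along the tissue gradient. Tol liver 3 was highest in 15 of the 24 most liver-dominated members, or 62.5%, and in 9 of the 29 brain-dominated members, or 31.0%, against 31.2% of the other models with Tol wholly below Intol and 24.5% of all filtered models. Tol liver 2 was highest in 5 of the 24 and in 17 of the 29. The other models were not split by tissue class, so whether this gradient is particular to the members cannot be told. The most common full order, Tol liver 1 below 3 below 2 and Intol liver 1 below 2 below 3, was shared by 23 members, or 15.2%, against 4.26% of all filtered models and 6.94% of the other models with Tol wholly below Intol. It was also the order of 6 of the 14 members with a ratio of at least 8, Trachinotus_GLEAN_10011160 and Trachinotus_GLEAN_10011020 among them. These orders were looked for after the values were seen, they share libraries, and they were not tested.

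**Figure D5:**
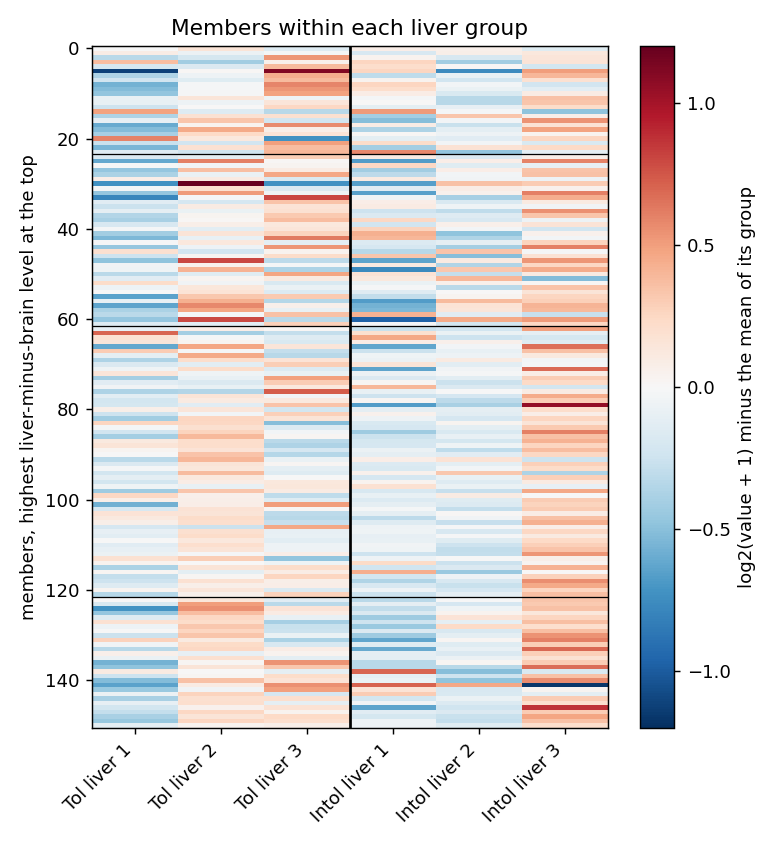
Members as rows, from the most liver-dominated at the top to the most brain-dominated at the bottom, and the 6 livers as columns. Colour is log2(value + 1) minus the mean of the library's own group, with the scale ending at 1.2 in size, and horizontal lines part the 4 tissue classes. Intol liver 3 is mostly above its group mean, and Tol liver 3 is above it mainly at the top.

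Few members had consecutive numbers, and whether they were more than a random placing would give was not tested. Of the 151 members, 6 formed 3 pairs of consecutive numbers. The members of 1 pair were listed at 0 in brain, apart from 0.12 in a single library, and stood at 1.95, 3.89 and 4.56 and at 5.48, 8.51 and 8.63 in Tol liver. In Intol liver this pair held 11.37, 17.43 and 18.27 and, for the second model, 44.18, 74.66 and 62.00. The other pairs differed from it in brain: 1 held 19.07 to 24.88 and 35.82 to 53.51 there, and 1 held 0.04 to 0.26 and 2.82 to 5.16. Reads shared between consecutively numbered models cannot be judged here, since no sequences were used. Of the 281 models numbered directly beside a member, 159 passed the liver filter, with a median liver D of -0.32 against -0.20 for all filtered models, and Tol lay wholly below Intol in 47.8% of them against 40.1%.

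Sets chosen in a like way are set beside the members by their levels. The 33 models that met every condition but were lower in Tol brain had a median liver D of -1.75 and medians of 4.54 and 21.9 in Tol and Intol liver, beside 5.43 and 23.6 in the members, and a median brain mean of 8.68. The 55 models of the mirrored rule were more abundant, with a median liver D of 1.86 and medians of 41.4 in Tol and 10.4 in Intol liver. Their median brain mean was 12.5, against 7.19 in the members. The rules fixed the directions of these sets, and their levels were not tested against each other.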

How the data were processed

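RNA was sequenced from 12 libraries, 3 for each status in each tissue, grouped by title. Per the labels' protocols, every tank of 80 gave 14 Tol and 14 Intol fish, RNA had an integrity number above 8, TruSeq libraries gave 125-bp paired ends on an Illumina HiSeq, and filtered reads were assembled with Trinity. The sources used here do not give the aligner, counter, build, annotation or normalization. The deposited files name no unit. The deposited values were read as FPKM because they are not whole and sum to 360680 to 622240 per library. Low values showed no steps of whole reads (at most 7.12% of low models in a bin of 0.05 of the log2 ratio between libraries of a group), so the depth is unknown and no counting interval is given. A second block in the file of Intol brain 2 equals Intol brain 1 in all 18490 values and was left out. Leaving out values of 0, no pair of libraries had more than 2.79% identical values.

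Fits used limma 3.58.1 (R 4.3.3) on log2(value + 1) with trend and robust moderation and group means, for models that reached 1 in 3 or more libraries of the fit, with Benjamini-Hochberg adjustment over all of them. Simulated data had log2 changes of 1 and 2 in 100 models each, drawn only from models above a set mean level. The liver fit over 9109 models recovered 51% and 91%. The brain fit over 14146 models recovered 91% and 98%, and the tissue fit over 14817 models 95% and 99%. False calls were 5.33%, 5.03% and 5.37%. These rates do not describe models at lower levels. Fewer models were changed than were called in the liver and tissue tests, and more than the 3 called in the brain test. Noise was drawn for each model independently, without shifts shared by the models of a library. Tables and figures used Python 3.11.15, NumPy 2.4.6, pandas 2.3.3 and matplotlib 3.10.9.

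Members, tests and lists were chosen with earlier results of these data known. Without gene names, at most 2 models are named per direction: the 2 lowest liver D among members above the median liver mean, and the 2 largest called differences between the tissues in each direction among members above the median mean. Other members are given without their numbers, chosen after their values were seen. Lists of marker and pathway genes could not be matched and were not used. Alternatives were other scalings, pseudocounts, filters, limits and limma options, a replicate block, 1 status at a time and each library left out.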

Additional observations from a re-analysis of the deposited data

How the results depend on the processing

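The number of models meeting the rule moved from 151 to 77 under median-ratio scaling within each tissue, 83 under quantile normalization, 69 with a pseudocount of 5, 530 and 45 with liver limits of -1 and -2, and 80 with a brain limit of 0.1. The fewer members under the stricter limits follow from the limits. It was 225 with a pseudocount of 0.1 and 106 under median-ratio scaling over all 12 libraries. With each library left out it ranged from 121 to 178. The median liver difference of the 151 moved from -1.76 to -1.501, -1.53, -2.04 and -1.38 under median-ratio scaling, quantile normalization and pseudocounts of 0.1 and 5, and to between -1.84 and -1.70 with each liver left out. The members higher in liver than brain moved from 76 to 133, 126 and 49 under median-ratio scaling, quantile normalization and with Tol libraries alone. Of all models tested, the share higher in liver went from 13.2% to 39%, 47.1% and 12% in that order. Members higher in brain moved from 53 to 7, 14 and 81 under the same settings, to 17 with Intol libraries alone and to 29 with a difference of at least 1. The share of all models higher in brain went from 82.1% to 48.6%, 41.0%, 83.1%, 77.9% and 67.5% in that order. The cause of shifts under scaling was not tested. Members called in brain were 0 in every setting run (limma), and of all models tested at most 14 were called higher and 12 lower. An unadjusted p under 0.05 (limma) was reached by 4 to 16 of the 92 to 149 members tested. Of all 9624 to 18211 models tested, 1296 to 2871 reached it. The rule used this contrast, and nothing is read from these counts.

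The correlation of same-numbered libraries across models, as deviations from group means, ranged from -0.07 to 0.20. It was 0.20 for replicate 3 in liver and in brain, where that number also matched best, but it was not above 0.1 for every number, so the numbers were not taken as pairs. With the replicate block, 150 members were called lower in Tol liver (29.9% of all models), 0 in brain (0.106%), 78 higher in liver than brain (13.3%) and 55 higher in brain (82.3%). All 151 members had 3 same-numbered pairs lower in Tol liver, which the rule fixed by asking for every Tol value below every Intol value.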
